A study of Mus musculus with 2 samples.

Results

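The Mir30 family, as analysed here, comprises 6 microRNA (miRNA) genes, Mir30a, Mir30b, Mir30c-1, Mir30c-2, Mir30d and Mir30e. All 6 were among the 1973 miRNA genes counted in this series. Members were chosen by name, through the Ensembl gene identifiers of the count tables. The rule used no values, though earlier results of these data were known when it was made. The libraries came from total RNA of limb tissue of B6NCrl mouse embryos at embryonic day 13.5, both sexes pooled. No treatment, mutation or transgene was given in the labels. There was 1 group with 2 biological replicates, which came from separate tissue samples under the same donor label, so no conditions could be compared. Of 12407140 reads in replicate 1, 5927321 matched a miRNA gene in sense, and of 12657170 reads in replicate 2, 6003632 did. The unit of level is CPM, in which the sense counts of all genes of a library are scaled to the same sum. They are counts of short RNAs per gene and were not divided by gene length.

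A miRNA gene is transcribed as a longer RNA from which a hairpin is cut, and the arms of the hairpin are then cut out as short mature RNAs, named 5p and 3p. A mature miRNA in an Argonaute protein binds messenger RNAs chiefly through its seed, bases 2 to 8, and lowers their translation and stability, so genes with the same seed have largely overlapping targets. In mouse osteoblast cultures, miR-30 miRNAs are known as repressors of bone cell differentiation that act on Runx2, the master transcription factor of the osteoblast, and on Smad1, which carries signals of bone morphogenetic proteins. At the stage studied, the limb consists of condensing cartilage, forming muscle, connective tissue, vessels, blood, nerve and a covering ectoderm.

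The 5p arms are shown because they carry the seed that defines the family. Mature sequences came from RefSeq (GRCm38.p6, the same build as mm10), in which 4 of the 6 genes were matched, Mir30a, Mir30c-1, Mir30c-2 and Mir30e. Mir30b and Mir30d were not matched. Capitals mark the seed.
miR-30a-5p: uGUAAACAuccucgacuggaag
miR-30e-5p: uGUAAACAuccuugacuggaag
miR-30c-5p: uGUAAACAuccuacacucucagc
miR-384-5p: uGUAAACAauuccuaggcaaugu
The seed GUAAACA was shared by the 5p arms of all 4 matched genes. Counting from 1 at the 5′ end, miR-30a-5p and miR-30e-5p differed by the single substitution C13U. Over 22 bases aligned without gaps, miR-30a-5p and miR-30c-5p differed by 5 substitutions, C13A, G14C, G18C, G19U and A20C, all 3′ of the seed. In RefSeq 1 further gene, Mir384 on the X chromosome, had the same seed.

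The 3p arms split the matched genes into 2 sets with different seeds, which is why they are shown; capitals again mark the seed.
miR-30a-3p: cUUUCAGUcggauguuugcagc
miR-30e-3p: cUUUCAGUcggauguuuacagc
miR-30c-1-3p: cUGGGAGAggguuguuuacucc
miR-30c-2-3p: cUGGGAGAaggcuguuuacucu
Mir30a and Mir30e had the 3p seed UUUCAGU and differed by G18A. Mir30c-1 and Mir30c-2 had the 3p seed UGGGAGA and differed by G9A, U12C and C22U. The deposited counts are per hairpin and do not tell 5p from 3p reads.

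Mir30c-1 and Mir30c-2 give the same miR-30c-5p. Their hairpins are shown because the counting depends on what they have in common; capitals mark the longest stretch shared by the pair.
Mir30c-1: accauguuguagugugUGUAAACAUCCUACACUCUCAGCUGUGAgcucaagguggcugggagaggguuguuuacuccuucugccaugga
Mir30c-2: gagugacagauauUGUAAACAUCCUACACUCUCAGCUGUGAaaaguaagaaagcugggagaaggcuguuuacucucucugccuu
The shared stretch was 28 bases long and began at the 5′ end of miR-30c-5p. Reads that map to several places are listed apart from the genes in the deposited tables, at 30.8% of all reads in replicate 1 and 29.5% in replicate 2, so a read lying within this stretch is assigned to neither gene. The counts of Mir30c-1 and Mir30c-2 are therefore uncertain, and how far they fall short of the RNA present was not tested. For comparison, the longest stretch shared by Mir30a and Mir30e was 18 bases, and neither of these had a longer stretch than 12 bases in common with Mir30c-1 or Mir30c-2.

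The genes form 3 pairs, each on 1 strand (mm10, with GENCODE M21 annotation). Mir30a (chromosome 1, 23272269 to 23272339, plus strand) lies 19361 bases before Mir30c-2 (23291701 to 23291784), which overlaps an annotated exon of the long noncoding RNA gene Gm27028. Mir30d (chromosome 15, 68341208 to 68341289, minus strand) lies 3697 bases from Mir30b (68337415 to 68337510). Mir30d overlaps annotated exons of the noncoding genes Gm20732 and Gm37296, and Mir30b an exon of Gm26621. Mir30e (chromosome 4, 120772606 to 120772697, minus strand) lies 2983 bases from Mir30c-1 (120769534 to 120769622), both within Nfyc, which encodes a subunit of the CCAAT-binding factor NF-Y, and outside its annotated exons. Mir30f is annotated on the strand opposite Mir30e and was not analysed here. No member had an antisense read in either library.

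The Mir30 family held 2.57% of sense counts in replicate 1 (95% exact binomial interval 2.55 to 2.58, 152137 counts) and 2.10% in replicate 2 (2.09 to 2.11, 126118 counts), a mean of 2.33% ± 0.33 (SD, n = 2). The difference between the libraries exceeded counting error. Each interval was computed within 1 library, so it covers counting error only and no variation between replicates. The labels and files mention no molecular identifiers, so copies of 1 molecule cannot be told from separate molecules. All 6 members were detected (10 or more sense counts in both libraries), against 18.9% of all 1973 counted genes. In limb tissue, which mixes cell types, fewer cells of a type that makes a miRNA and less of it per cell cannot be told apart.

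Mir30e, within Nfyc, was the most abundant member. It had 103039 counts in replicate 1 and 82972 in replicate 2, or 17384 and 13820 CPM. Its mean of 15602 ± 2520 CPM (SD, n = 2) placed it 17th of all counted genes, 16th in replicate 1 and 18th in replicate 2. Mir30e alone made up 67.7% of the family's counts in replicate 1 and 65.8% in replicate 2.

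Mir30a followed, with 28252 and 23210 counts in replicates 1 and 2, or 4766 and 3866 CPM, a mean of 4316 ± 637 CPM (SD, n = 2). Mir30d had 19867 and 19009 counts, or 3352 and 3166 CPM, a mean of 3259 ± 131 CPM (SD, n = 2). They stood 45th and 52nd among all genes. Mir30e was thus 3.65-fold above Mir30a in replicate 1 and 3.57-fold in replicate 2, while Mir30a was 1.42-fold and 1.22-fold above Mir30d.

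The other members were much scarcer. Mir30b had 579 and 503 counts in replicates 1 and 2, or 97.7 and 83.8 CPM (mean 90.7 ± 9.8, SD, n = 2). Mir30c-1, the partner of Mir30e, had 335 and 353 counts, or 56.5 and 58.8 CPM (mean 57.7 ± 1.6, SD, n = 2). Mir30c-2, the partner of Mir30a, was lowest, with 65 and 71 counts, or 11.0 and 11.8 CPM (mean 11.4 ± 0.61, SD, n = 2). The 95% Poisson interval of Mir30c-2 ran from 8.46 to 14.0 CPM in replicate 1 and from 9.24 to 14.9 CPM in replicate 2. The order by mean was Mir30e, Mir30a, Mir30d, Mir30b, Mir30c-1 and Mir30c-2, and no 2 neighbours in it had overlapping values across the libraries. The highest was 1369-fold above the lowest by mean, in counts that leave out reads shared by Mir30c-1 and Mir30c-2. The order carries no test; an exact two-sided test of 2 libraries cannot give a p below 0.5.

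**Figure D1:**
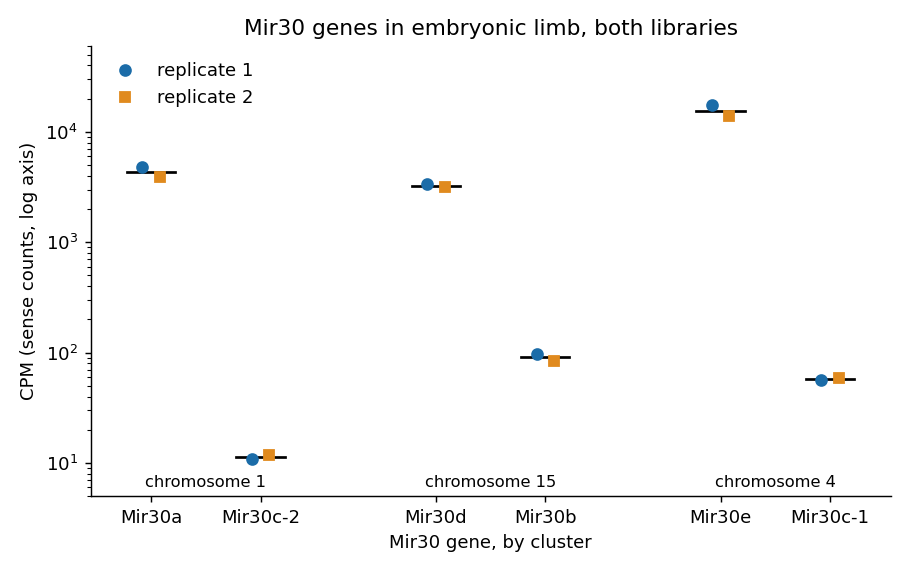
CPM of each Mir30 gene on a log axis, grouped by cluster, with replicate 1 as circles, replicate 2 as squares and the mean of the 2 libraries as a bar. In each cluster 1 gene lies at 3166 CPM or more in both libraries and its partner at 97.7 CPM or less.

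By rank of assigned counts, the members fell into an abundant set and a scarce set. The places of Mir30c-1 and Mir30c-2 are uncertain, because reads within their shared stretch count for neither. Mir30a, Mir30d and Mir30e together held 99.4% of the family's counts in replicate 1 and 99.3% in replicate 2. Mir30b, Mir30c-1 and Mir30c-2 held 0.643% and 0.735%, and stood 194th, 213th and 278th among all genes. The median of all 372 detected genes was 106 CPM, above each of the scarce members and below each of the abundant ones.

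**Figure D2:**
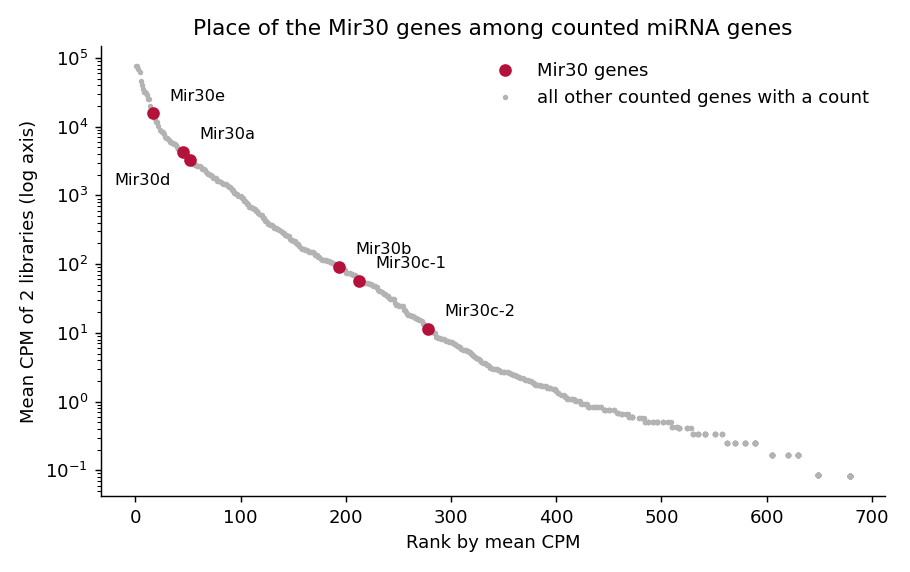
Mean CPM of the 2 libraries on a log axis against rank, for the Mir30 genes in red and all other miRNA genes with a count in grey. Mir30e stands 17th, Mir30a 45th and Mir30d 52nd, while Mir30b, Mir30c-1 and Mir30c-2 stand 194th, 213th and 278th.

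By assigned counts, each cluster held 1 abundant and 1 scarce gene. The stretch shared by Mir30c-1 and Mir30c-2 includes miR-30c-5p, and reads within it count for neither gene. Ratios that involve these genes therefore hold for assigned reads only and do not give the ratio of the RNAs present. Mir30b and Mir30d had no matched sequence, so bases they share with other genes were not checked. Their ratio may carry the same limit. Mir30a counts were 431-fold those of Mir30c-2 in replicate 1 and 325-fold in replicate 2, a log2 ratio of 8.55 ± 0.29 (SD, n = 2, with 0.5 counts added). Mir30e counts were 307-fold those of Mir30c-1 in replicate 1 and 235-fold in replicate 2, a log2 ratio of 8.07 ± 0.27 (SD, n = 2). Mir30d counts were 34.3-fold those of Mir30b in replicate 1 and 37.8-fold in replicate 2, a log2 ratio of 5.17 ± 0.10 (SD, n = 2). The direction was the same in both libraries for all 3 pairs, and no p was computed; an exact test of 2 libraries allows none below 0.5.

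The unequal pairs were set beside other neighbouring miRNA genes. The limit on the counts of Mir30c-1 and Mir30c-2 applies to their pairs here too. Some of the other pairs also hold genes with 22 or more hairpin bases in common with another counted gene. Their ratios may carry the same limit. Among 100 pairs of detected next neighbours on 1 strand within 20 kb, the median absolute log2 ratio was 2.97. Mir30a and Mir30c-2, 19361 bases apart, lie just within this distance, and no other distance was tried. Ratios as large as that of Mir30a and Mir30c-2 or larger were found in 5 of the 100 pairs, that pair included. The corresponding numbers were 7 for Mir30e and Mir30c-1 and 26 for Mir30d and Mir30b. Among all 149 such pairs with at least 1 gene detected, the median was 4.34, and the numbers were 31 for Mir30a and Mir30c-2, 34 for Mir30e and Mir30c-1 and 62 for Mir30d and Mir30b. These are descriptions, since 1 gene can enter 2 of the pairs.

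Genes whose mature sequence recurs in another gene, as miR-30c-5p does, had lower counts by median among all detected genes with a RefSeq mature sequence (338 of 372). Reads of such a sequence can map to several genes and are then counted for none. Whether the counting or the RNA present accounts for the lower median was not tested. Of these, 47 had at least 1 mature sequence in common with another gene and a median of 49.4 CPM, while 291 had none and a median of 134 CPM. Mir30c-1 was exceeded by 18 of the 47 and Mir30c-2 by 36, so Mir30c-1 lay in the upper part of this set and Mir30c-2 in the lower. Mir92-1, with 2784 CPM the highest of the 47, lay below Mir30a, Mir30d and Mir30e. Mir30d had no matched sequence and belongs to neither set.

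By cluster, Mir30e with Mir30c-1 held 67.9% and 66.1% of the family's counts in replicates 1 and 2, Mir30a with Mir30c-2 held 18.6% and 18.5%, and Mir30d with Mir30b held 13.4% and 15.5%. The share of the chromosome 1 cluster thus differed little between the libraries, by 0.11 percentage points in SD, whereas that of the chromosome 15 cluster had an SD of 1.44 percentage points. The Mir181 family is another set of 6 miRNA genes in 3 pairs. Mir30 genes held 2.57% and 2.10% of sense counts in replicates 1 and 2, and Mir181 genes 1.60% and 1.40%. The log2 ratio of Mir181a-1 over Mir181b-1 was 6.96 ± 0.10, that of Mir181a-2 over Mir181b-2 was -2.15 ± 0.21 and that of Mir181c over Mir181d was 0.89 ± 0.02 (SD, n = 2 each). The largest absolute ratio within a Mir181 pair was thus below that of 2 of the 3 Mir30 pairs and above that of Mir30d and Mir30b. Both families hold genes with 22 or more hairpin bases in common with another counted gene, and the difference between the families was not tested.

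**Figure D3:**
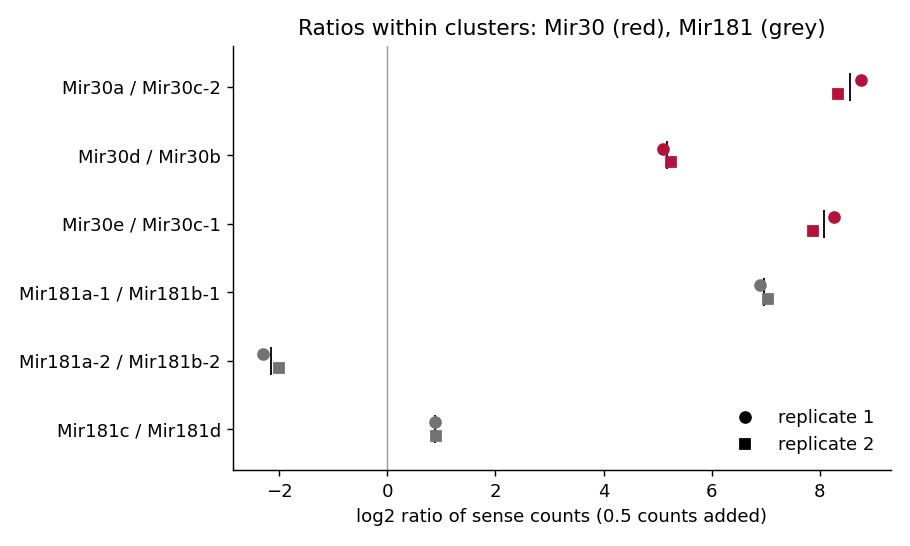
Log2 ratio of sense counts between the genes of each cluster, for Mir30 pairs in red and Mir181 pairs in grey, with replicate 1 as circles, replicate 2 as squares and the mean as a vertical bar. The Mir30 pairs lie between 5.10 and 8.75, and the Mir181 pairs between -2.29 and 7.03.

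The libraries differed for some members beyond counting error. A two-sided exact binomial test was made for each of 444 genes with at least 10 counts over both libraries, with Benjamini-Hochberg adjustment over all of them. Calls needed an adjusted p under 0.05 and an absolute log2 ratio of at least 1. No Mir30 gene was called, against 3.38% of all genes tested. Without the minimum ratio, 4 of the 6 members passed by this test, all higher in replicate 1, against 40.3% of all genes tested in either direction and 22.1% higher in replicate 1. The same 4 had an unadjusted p under 0.05.

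Mir30e was higher in replicate 1 than in replicate 2 by a log2 ratio of 0.33, Mir30a by 0.30, Mir30b by 0.22 and Mir30d by 0.08. By the exact binomial test the adjusted p was 1.21e-122 for Mir30a, 1.03e-07 for Mir30d and 0.0336 for Mir30b, and smaller than any of these for Mir30e. For Mir30b it was 0.0534 with TMM and 0.0571 with DESeq2 size factors, so that Mir30b no longer passed. Mir30c-1 had a log2 ratio of -0.06 and Mir30c-2 of -0.11, with adjusted p of 0.774 and 0.805 by the exact test. The test compares these 2 libraries, and its p depends strongly on depth.

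For size, the ratios of the abundant members were set beside those of the 190 genes with at least 100 CPM, whose median absolute log2 ratio was 0.13. A larger absolute ratio than that of Mir30e was found in 18 of them, than that of Mir30a in 26 and than that of Mir30d in 124. Mir30e and Mir30a were therefore among the more variable abundant genes between the libraries, and Mir30d lay below the median.

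**Figure D4:**
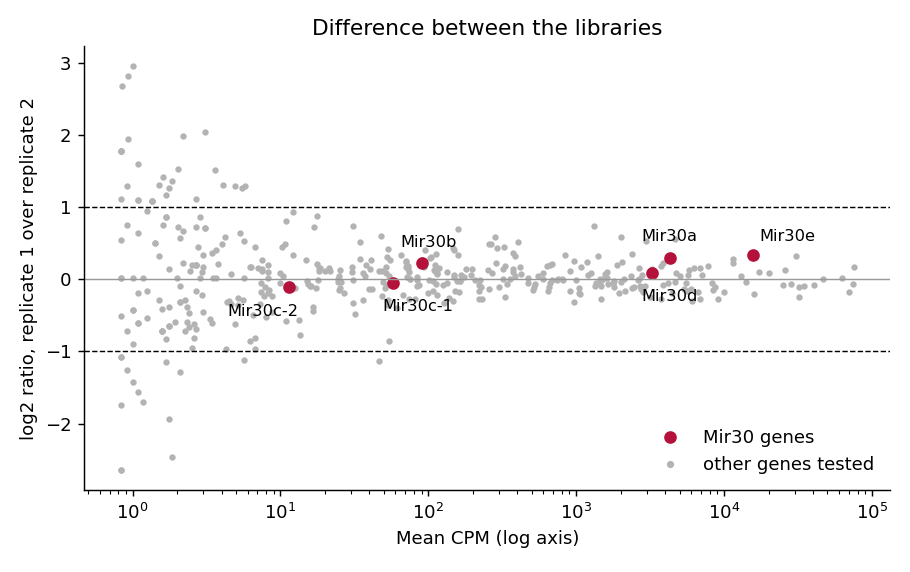
Log2 ratio of replicate 1 over replicate 2 against mean CPM on a log axis, for the Mir30 genes in red and the other genes tested in grey; dashed lines mark the minimum ratio of 1 in each direction. All Mir30 genes lie between -0.11 and 0.33.

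Mir384, the other gene with the seed GUAAACA, is known in mouse as a brain miRNA. It had 70 counts in replicate 1 and 52 in replicate 2, or 11.8 and 8.66 CPM, close to Mir30c-2. Its values and those of Mir30c-2 overlapped.

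Mir30c belongs to a set of miRNAs shown in mouse osteoblast cultures to target Runx2. The other 13 genes of that set were all counted, and 11 were detected, against 18.9% of all counted genes. The 11 detected genes had a median of 110 CPM, close to the 106 CPM of all detected genes. Over all 13, the median was 48.5 CPM. The 6 Mir30 genes had a median of 1675 CPM, which falls between Mir30d and Mir30b, with no member near it. Mir30c-1 and Mir30c-2, the genes of miR-30c, had means of 57.7 and 11.4 CPM. Both lay below 110 CPM, but reads within their shared stretch, which includes miR-30c-5p, count for neither gene. These values therefore do not give the level of miR-30c-5p. Among the list, 4 genes have 22 or more hairpin bases in common with another counted gene, and without these 4 the median over the remaining 9 genes was 129 CPM, of which 7 were detected. Mir133a-1 and Mir133a-2 had no hairpin in the RefSeq table and stayed among the 9.

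Mir23a, a miRNA gene that represses osteoblast differentiation, led that list with 14807 CPM in replicate 1 and 16965 CPM in replicate 2. Mir30e, at 17384 and 13820 CPM, was above Mir23a in replicate 1 and below it in replicate 2, so their order was not resolved. The epithelial gene Mir205 had 6269 and 7567 CPM, Mir34c of the p53-responsive Mir34 family had 678 and 596 CPM, and Mir204 had 332 and 346 CPM. All 3 lay below Mir30e, and Mir205 lay above Mir30a and Mir30d. Mir137, a neuronal gene, had 114 and 143 CPM, and Mir338 had 115 and 105 CPM. Mir218-2, Mir218-1, Mir135a-2, Mir135a-1 and Mir217 had means between 4.94 and 48.5 CPM.

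Both genes of the muscle miRNA miR-133a were at the floor. Mir133a-2 had 0 counts in both libraries, for which the upper limit of 3 counts is 0.506 CPM in replicate 1 and 0.4997 CPM in replicate 2. Mir133a-1 had 0 counts in replicate 1 and 1 in replicate 2. Both genes encode miR-133a, so a read that maps to both is assigned to neither. The limits therefore hold for uniquely mapped reads and do not bound the level of miR-133a in the limb.

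**Figure D5:**
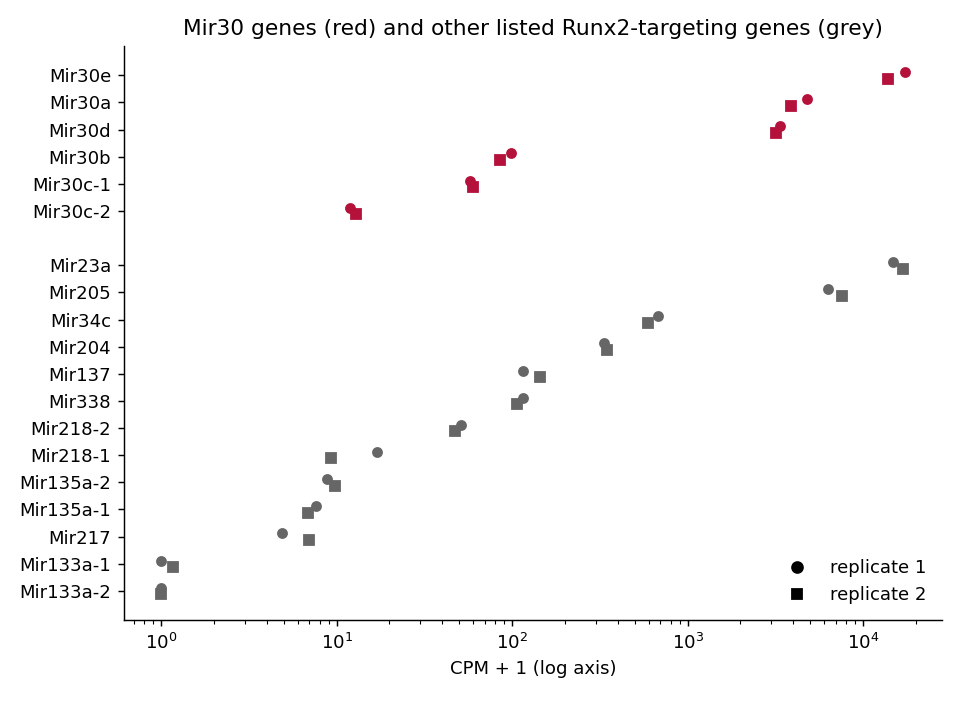
CPM plus 1 on a log axis for the Mir30 genes in red and the other listed Runx2-targeting miRNA genes in grey, each by falling mean, with replicate 1 as circles and replicate 2 as squares. Mir30e and Mir23a overlap at the top, and Mir133a-1 and Mir133a-2 lie at the lower end.

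No likeness of pattern across conditions could be computed, as there was 1 tissue at 1 age. By level alone, over 2 libraries, the genes next to Mir30e in mean CPM were Mir23a above (15886 ± 1526 CPM) and Mir10b below (14101 ± 232 CPM). Next to Mir30a stood Mir379 (4438 ± 412 CPM) and Mir382 (4152 ± 104 CPM), and next to Mir30d stood Mir532 (3270 ± 236 CPM) and Mir98 (3145 ± 373 CPM; SD, n = 2 for each). In the lower range, Mir30b lay between Mirlet7a-1 and Mir345, Mir30c-1 between Mir29a and Mir138-2, and Mir30c-2 between Mir7655 and Mir211. Each of the 6 genes next to Mir30e, Mir30a and Mir30d changed sides with its Mir30 gene between the libraries, so these orders were not resolved.

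The tissue label was set against miRNA markers. The 9 limb markers were all detected and held 18.5% and 17.7% of sense counts in replicates 1 and 2, led by the Hox cluster gene Mir196b. Of 5 counted markers of liver, heart, pancreas and brain, 4 were detected, where 18.9% of all counted genes were. They held 0.101% and 0.0834%, most of it in Mir375 at 934 and 742 CPM. The liver marker Mir122 had 66.8 and 80.6 CPM in replicates 1 and 2, close to the erythroid limb marker Mir451a at 74.7 and 74.8 CPM. Detection alone therefore did not separate the lists. The brain gene Mir9-2 had 0 counts in both libraries, and Mir9-1 was not analysed here. Mir9-2 and Mir9-3 have 22 or more hairpin bases in common with another counted gene, so their low counts are no check of the label.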

How the data were processed

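The deposited tables hold whole-number read counts per miRNA gene for each library, made by the authors on mm10 with GENCODE M4, per the text deposited with the counts. The sources used here name no aligner or counting program. The 3 count columns carry no header. Their layout is that of STAR gene counts (either strand, sense, antisense), and the column taken as either strand equalled the sum of the others in all 1973 genes. The 4 leading lines name no gene and stayed out of library sizes: in replicates 1 and 2, unmapped reads were 17.2% and 18.6%, multimapping reads 30.8% and 29.5%, and uniquely mapped reads outside genes in sense 4.24% and 4.48% of all reads. Sense counts in genes were 47.8% and 47.4%.

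CPM values were computed here from the sense counts. Identifiers, without version, matched GENCODE M21 (GRCm38) for 1894 of 1973 genes. A gene was detected with at least 10 counts in each library. Libraries were compared with a two-sided exact binomial test and Benjamini-Hochberg adjustment (scipy 1.17.1), and log2 ratios had 0.5 counts added. The test was also run on simulated Poisson counts, which hold no variation between replicates beyond counting error. These libraries vary more, so that run does not show the error rate of the test here. edgeR 4.0.16 gave TMM factors and DESeq2 1.42.0 size factors as alternatives. edgeR's quasi-likelihood test could not be fitted with 1 group. Over the 372 detected genes the counts of the libraries differed beyond sampling noise (chi-square 39140.3, 371 degrees of freedom), so they were kept as 2 replicates; the binomial p covers counting error only. Confidence intervals are at 95%. RefSeq hairpins were matched by symbol for 869 genes, and copies outside annotated miRNA genes were not searched.

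The members and lists were chosen with earlier results of these data known. Genes named are the Mir30 genes, genes with the same 5p seed, the Runx2 list, the next gene above and below each member by mean CPM, tissue markers, and the Mir181 family for comparison. Mir92-1 was named after its value was seen.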

Additional observations from a re-analysis of the deposited data

How the results depend on the processing

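Of 121 recomputed values, 105 stayed within the spread between libraries, within 1.5 times the count, or on the same side of the threshold, and none changed direction. Part of this was fixed in advance. With 2 libraries, leaving 1 out always moves a mean by less than their SD. Counting either strand cannot change the cluster shares or the ratios within clusters, since no member had an antisense read. The tally is therefore no measure of robustness. As a share of all reads in place of gene-assigned sense counts, the Mir30 genes held 1.11%. Leaving out 1 library at a time, the family held 2.10% to 2.57%. The shares of the clusters were 18.5% to 18.6% for Mir30a with Mir30c-2, 13.4% to 15.5% for Mir30d with Mir30b and 66.1% to 67.9% for Mir30e with Mir30c-1. At a minimum of 1 count, 570 genes were detected, and all 6 Mir30 genes were detected at every minimum tried, up to 50. Without the minimum ratio, 179 genes differed between the libraries. Without genes sharing 22 or more hairpin bases, 7 Runx2-list genes were detected, with a median of 129 CPM; the list is then shorter by construction. With either strand counted, the counts of the members were unchanged, and the larger library sum lowered the CPM of all of them. Only for Mir30c-1, at 55.8 CPM, did this shift exceed the SD between the libraries. No paired analysis was possible because the series has 1 group. Depth limits Mir30c-2 most, at 65 and 71 counts.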
